A study of Rattus norvegicus with 15 samples.

Results

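Heme oxygenase 1 and 5 other genes of the response to oxidative stress were followed in brain tissue of Sprague-Dawley rats 72 h after intracerebral hemorrhage, bleeding into the brain. The 6 genes were Hmox1 (ENSRNOG00000014117), Nfe2l2 (ENSRNOG00000001548), Nqo1 (ENSRNOG00000012772), Sod1 (ENSRNOG00000002115), Sod2 (ENSRNOG00000019048) and Cat (ENSRNOG00000008364). They were picked by Ensembl ID from a stated pairing of IDs with symbols, which the count table itself does not hold. The rule used no measured value, but the set was proposed with earlier results of these data known. All 6 of the 6 IDs were found among the 15094 genes of the table, and all 6 passed the filter on low counts, which left 14963 genes.

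The sham group (Sham) had an operation without hemorrhage, the hemorrhage group (ICH) had the modelled bleed, and the third group (ICH_MA) had mithramycin A after the bleed. Mithramycin A is a drug that binds GC-rich DNA and keeps the transcription factor Sp1 from its sites there. The tissue was labelled brain, with basal ganglia cells as the cell type, and all libraries carried the same batch date. The sources used here do not give the age and sex of the rats, the way the bleed was made, the dose of the drug, how long after the bleed it was given, or whether ICH rats had a vehicle. The count table covered 11 of the 15 labelled samples: Sham replicates 1 to 5, replicates 1, 2 and 5 of ICH, and replicates 1, 2 and 3 of ICH_MA. The other 4 samples were not analysed here. The design named 5 rats per group, but the labels do not say that each library came from a separate rat, so the p-values measure the spread between these libraries. Libraries held 56393423 to 67733469 counts, with the ranges of the 3 groups overlapping. The labelled cell type could not be checked against marker genes, because only the 6 genes have names here. In bulk tissue, a change in the number of cells that express a gene and a change in its RNA per cell cannot be told apart, and the part of cell composition in the results was not tested.

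Blood in the brain releases hemoglobin, whose heme is toxic to neurons and glia. Heme oxygenase 1, the product of Hmox1, opens the heme ring and yields biliverdin, carbon monoxide and iron, and in injured brain it is known from microglia, macrophages and astrocytes. NRF2, the product of Nfe2l2, is the transcription factor that KEAP1 holds at a low level until oxidants or electrophiles release it. It then binds antioxidant response elements together with small MAF proteins, and Hmox1 and Nqo1 are textbook targets. Nqo1 encodes a quinone reductase that uses NADPH or NADH. Sod1 (cytosol) and Sod2 (mitochondria) encode the enzymes that turn superoxide into hydrogen peroxide, and Cat encodes catalase, the enzyme of peroxisomes that breaks hydrogen peroxide down.

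The response to hemorrhage was uneven among these genes. Hmox1 rose 18.6-fold, Nfe2l2 and Nqo1 rose 1.59-fold and 1.58-fold, and Sod2 fell to 0.872 of its Sham level (called by the quasi-likelihood test of edgeR at an adjusted p below 0.05, with 3 libraries against 5). Sod1 and Cat did not pass the test. Thus 3 of the 6 genes rose and 1 fell, where 15% of all genes tested rose and 9.44% fell, together 24.5%. The median log2 fold change was 0.39 over the 6 genes and 0.00393 over all genes tested. No test of the 6 genes as a list was made.

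**Figure D1:**
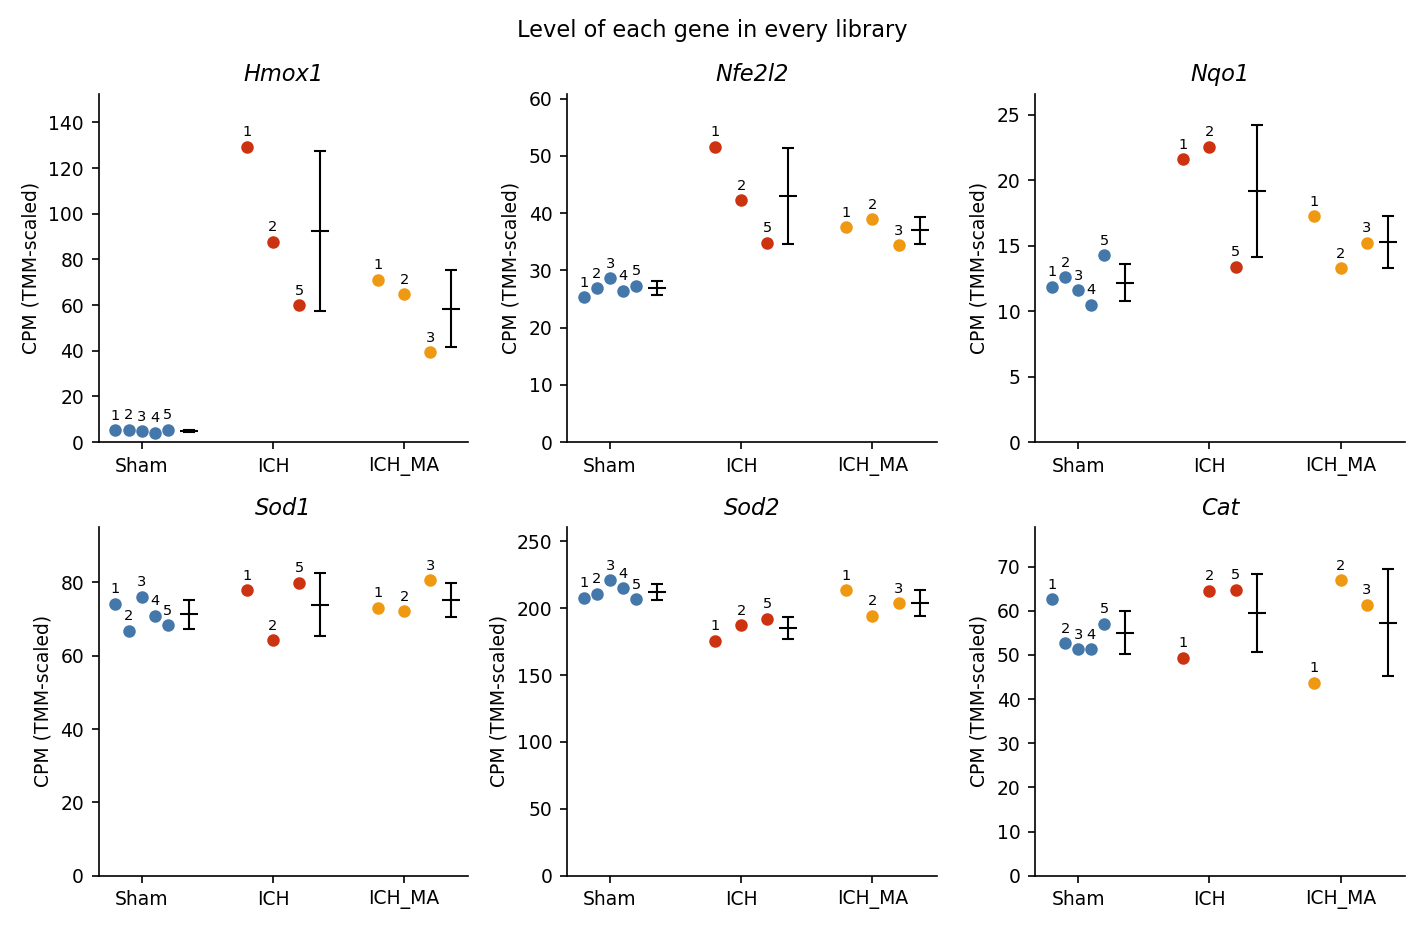
Level of each gene in CPM (counts scaled to a common library total, y axis from 0) in every library, by group (x axis); numbers are replicate numbers, and the bar beside each group is the mean ± SD (n = 5, 3 and 3). Hmox1 lay at 4.05 to 5.45 CPM in Sham and at 39.4 to 129 CPM in all 6 ICH and ICH_MA libraries, whereas Sod1 and Cat overlapped between all groups.

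Hmox1, which begins heme breakdown, had 348, 347, 292, 264 and 295 counts in Sham replicates 1 to 5. It had 7725, 5282 and 3959 counts in ICH replicates 1, 2 and 5, and 4338, 3689 and 2685 counts in ICH_MA replicates 1, 2 and 3. Every ICH and ICH_MA library was thus far above every Sham library, and the lowest of the 6 was ICH_MA replicate 3. In CPM the Sham level was 4.95 ± 0.586 (SD, n = 5). The ICH level was 92.3 ± 34.9 (SD, n = 3) and that of ICH_MA was 58.4 ± 16.8 (SD, n = 3). The log2 fold change of ICH against Sham was 4.22 with SE 0.25 (edgeR adjusted p = 2.95e-05), and the 95% interval of the fold was 12.8 to 27.1. Hmox1 had the smallest p-value of the 14963 genes tested in this comparison, and by log2 fold change it ranked 45th from the top. The spread was wide within ICH, where the highest library was 2.16 times the lowest, against 1.34 times in Sham. Leaving out any library kept the log2 fold change between 3.90 and 4.45, with edgeR adjusted p of at most 0.00037.

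Nfe2l2, the gene of NRF2, had 25.3, 26.9, 28.6, 26.5 and 27.4 CPM in Sham replicates 1 to 5. It had 51.6, 42.3 and 34.9 CPM in ICH replicates 1, 2 and 5, and 37.6, 39.0 and 34.4 CPM in ICH_MA replicates 1, 2 and 3. The 6 libraries with hemorrhage all lay above the 5 Sham libraries, and within ICH the order of replicates 1, 2 and 5 was that of Hmox1. Within ICH_MA the order was not that of Hmox1. The log2 fold change of ICH against Sham was 0.67 with SE 0.10 (edgeR adjusted p = 0.00124), and the 95% interval of the fold was 1.36 to 1.86. This interval lies below the whole of that of Hmox1.

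Nqo1, the quinone reductase, had 11.9, 12.6, 11.6, 10.5 and 14.3 CPM in Sham replicates 1 to 5. It had 21.6, 22.6 and 13.4 CPM in ICH replicates 1, 2 and 5, and 17.3, 13.3 and 15.2 CPM in ICH_MA replicates 1, 2 and 3. ICH replicates 1 and 2 were above every Sham library, but ICH replicate 5 lay below Sham replicate 5, so the groups overlapped. The log2 fold change of ICH against Sham was 0.66 with SE 0.16 (edgeR adjusted p = 0.014, 95% interval of the fold 1.23 to 2.02). This call was lost without ICH replicate 1 (log2 fold change 0.56, edgeR adjusted p = 0.072) and without ICH replicate 2 (0.52, adjusted p = 0.0723).

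Sod2, the manganese superoxide dismutase of mitochondria, was the gene of the set that fell. Its level was 208, 211, 221, 215 and 206 CPM in Sham replicates 1 to 5, 176, 187 and 192 CPM in ICH replicates 1, 2 and 5, and 214, 194 and 204 CPM in ICH_MA replicates 1, 2 and 3. All 3 ICH libraries were below every Sham and every ICH_MA library, while Sham and ICH_MA overlapped. The fall was small against the changes above. The log2 fold change of ICH against Sham was -0.20 with SE 0.05 (edgeR adjusted p = 0.0137, 95% interval of the fold 0.809 to 0.939). Without ICH replicate 1 it was -0.16 and did not pass (edgeR adjusted p = 0.0692). The reference gene table lists a pseudogene, Sod2-ps1, and reads shared with it could have been divided by the counting, which was not tested.

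Sod1, the copper and zinc superoxide dismutase of the cytosol, was at 66.9 to 76.1 CPM in Sham with a median of 70.9. It was at 77.8, 64.2 and 79.9 CPM in ICH replicates 1, 2 and 5 and at 73.1, 72.2 and 80.6 CPM in ICH_MA replicates 1, 2 and 3. ICH held both the lowest library of the 11 (replicate 2) and the second highest (replicate 5), and the groups overlapped. The fold of ICH against Sham was 1.04 with a 95% interval of 0.923 to 1.17 (edgeR adjusted p = 0.649).

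Cat, the peroxisomal catalase, was at 62.7, 52.7, 51.4, 51.3 and 57.1 CPM in Sham replicates 1 to 5. It was at 49.4, 64.5 and 64.8 CPM in ICH replicates 1, 2 and 5 and at 43.7, 66.9 and 61.4 CPM in ICH_MA replicates 1, 2 and 3. In both groups with hemorrhage, replicate 1 lay below all Sham libraries and the other two lay at or near the top. The fold of ICH against Sham was 1.08 with a 95% interval of 0.881 to 1.33 (edgeR adjusted p = 0.576).

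**Figure D2:**
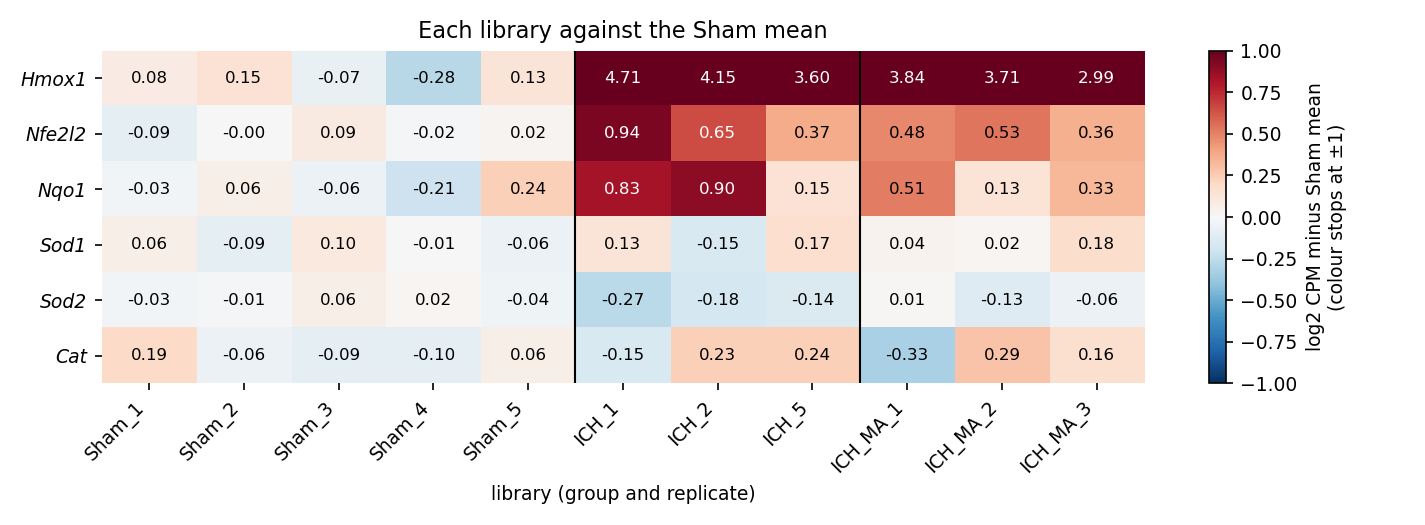
Log2 CPM of each gene (rows) in each library (columns) minus the mean of the 5 Sham libraries; colour stops at ±1 and the number in each cell is the value. The rows of Hmox1, Nfe2l2 and Nqo1 were above 0 in all 6 ICH and ICH_MA libraries, at 4.71, 0.94 and 0.83 in ICH replicate 1 and at 3.60, 0.37 and 0.15 in ICH replicate 5.

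Complete separation of ICH from Sham was seen for Hmox1 and Nfe2l2 upward and for Sod2 downward. Among all genes tested, 15.2% were separated upward and 10.9% downward. Hmox1 and Nfe2l2 shared their order over the ICH libraries, with replicate 1 highest and replicate 5 lowest, while in Nqo1 replicate 2 was slightly above replicate 1. They did not share it over the ICH_MA libraries, where replicate 1 was highest for Hmox1 and replicate 2 for Nfe2l2. An order over so few libraries is weak evidence of likeness, and the share of all genes with the same order was not counted. ICH replicate 5 was the lowest ICH library for all 3 genes that rose, and its Nqo1 level was 0.15 above the Sham mean on the log2 scale, within the Sham range of -0.21 to 0.24.

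The next comparison asked whether the drug changed these genes after hemorrhage. No member passed the test between ICH_MA and ICH (0 of 6 by edgeR, 3 against 3 libraries, with 2 of 6 at an unadjusted p under 0.05), and none of the 14963 genes did (0%). DESeq2 and limma-voom also called 0 of the 6, where DESeq2 called 3.19% of all genes and limma-voom 0%. At an unadjusted p under 0.05 edgeR had 15.5% of all genes. The fold of ICH_MA against ICH was 0.633 for Hmox1 with a 95% interval of 0.426 to 0.940 (edgeR adjusted p = 0.265). It was 0.862 for Nfe2l2 (0.721 to 1.03, adjusted p = 0.402) and 0.796 for Nqo1 (0.601 to 1.05, adjusted p = 0.416). For Sod2 it was 1.10 (1.01 to 1.20, adjusted p = 0.257), and all 3 ICH_MA libraries lay above all 3 ICH libraries, as they did for 7.87% of all genes. For Sod1 it was 1.02 (0.892 to 1.16, adjusted p = 0.921) and for Cat 0.963 (0.763 to 1.21, adjusted p = 0.901).

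**Figure D3:**
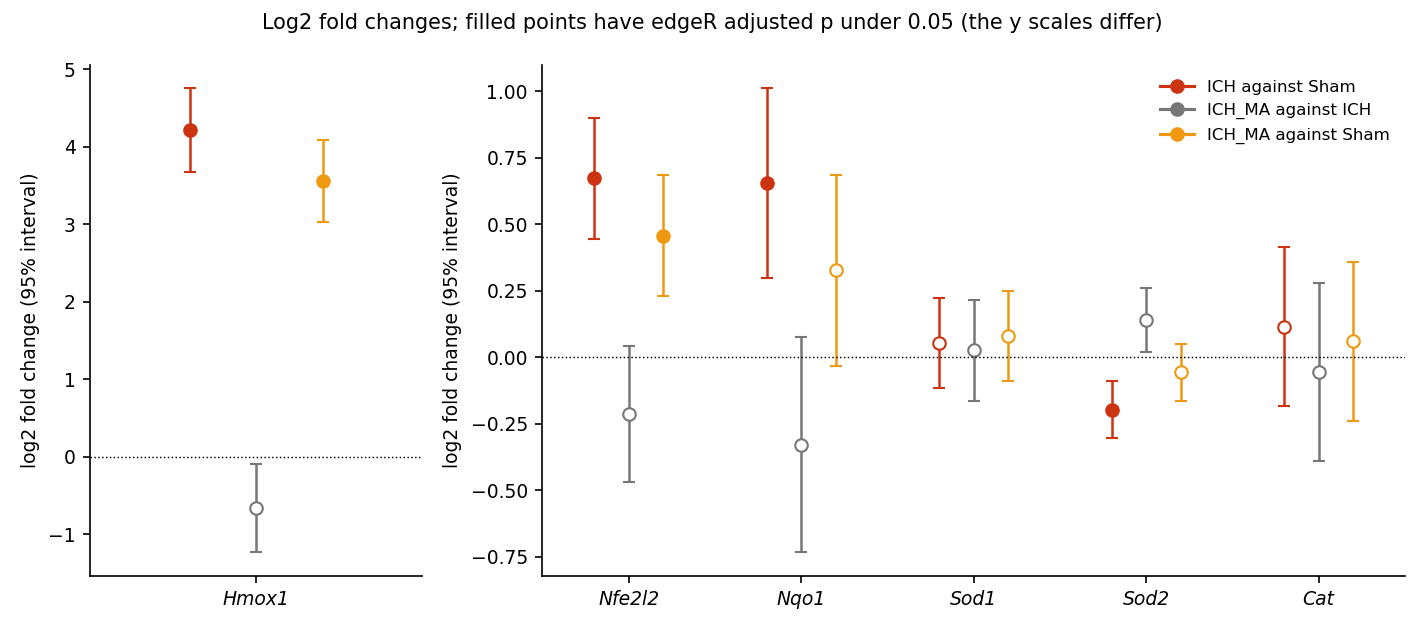
Log2 fold changes (y axis) of each gene (x axis) in the 3 comparisons; points are edgeR estimates, bars are 95% intervals, and filled points have an adjusted p under 0.05. Hmox1 is on its own scale on the left, at 4.22 and 3.56 against Sham and at -0.66 between ICH_MA and ICH.

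Among the alternative fits, the count of 0 changed only without ICH replicate 5, the lowest ICH library for Hmox1, Nfe2l2 and Nqo1. Its Hmox1 level of 59.9 CPM lay inside the ICH_MA range of 39.4 to 71.2 CPM, and its Nfe2l2 level of 34.9 CPM inside that of 34.4 to 39.0 CPM. Its Nqo1 level of 13.4 CPM was just above the lowest ICH_MA library, at 13.3 CPM. Without this library 3 of the 6 genes were called lower in ICH_MA than in ICH, where 5.68% of all genes were. They were Hmox1 with a log2 fold change of -0.89 (SE 0.23, edgeR adjusted p = 0.0432), Nqo1 with -0.53 (SE 0.14, adjusted p = 0.0432) and Nfe2l2 with -0.34 (SE 0.09, adjusted p = 0.0498). These 3 calls were near the threshold, and leaving out the lowest ICH library moves such log2 fold changes further below 0 in any case. Without ICH replicate 1, in turn, the log2 fold change was -0.34 for Hmox1 and -0.06 for Nfe2l2, and 0 of the 6 genes passed. ICH replicate 5 had 65438000 counts, the most of the ICH libraries and within the range of Sham. A part of hematoma size, of the piece of tissue taken or of cell composition was not tested.

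**Figure D4:**
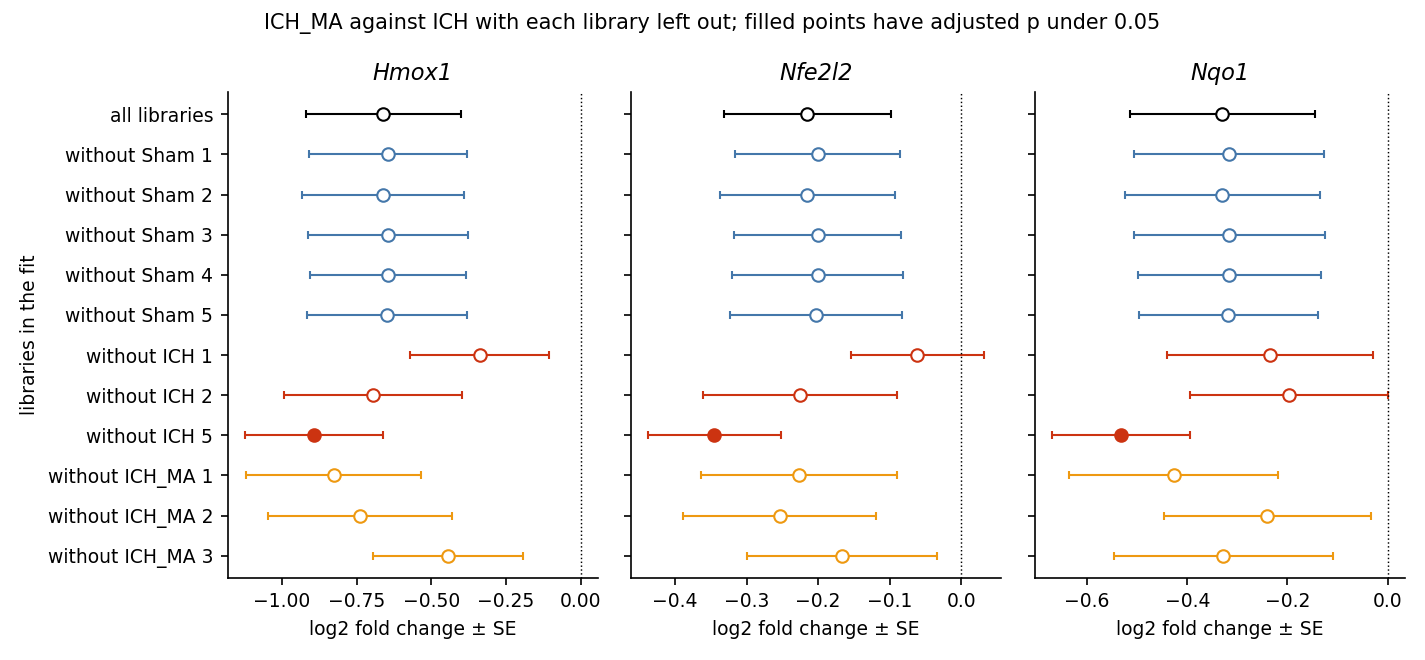
Log2 fold change of ICH_MA against ICH (x axis, ± SE) for Hmox1, Nfe2l2 and Nqo1 with all libraries and with each library left out in turn (y axis); filled points have an edgeR adjusted p under 0.05. The points are filled without ICH replicate 5, and lie nearest to 0 for Hmox1 (-0.34) and Nfe2l2 (-0.06) without ICH replicate 1.

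The last comparison asked how the genes stood in treated rats against Sham. It uses the Sham libraries of the first comparison, so the 2 are not independent. Hmox1 rose 11.8-fold in ICH_MA (95% interval 8.16 to 17.0). Its log2 fold change was 3.56 (SE 0.24, edgeR adjusted p = 0.000128), and it again had the smallest p-value of all genes tested. Nfe2l2 rose 1.37-fold (1.17 to 1.61), with a log2 fold change of 0.46 (SE 0.10, edgeR adjusted p = 0.0254). Thus 2 of the 6 genes rose and 0 fell, where 5% of all genes tested rose and 1.67% fell, together 6.67%. The same 2 genes were the ones separated upward from Sham, as were 11.8% of all genes. The Nfe2l2 call was near the threshold. It was lost without Sham replicates 2, 4 or 5 (edgeR adjusted p = 0.0567, 0.0566 and 0.0528) and without ICH_MA replicates 1 or 2 (0.0773 and 0.113), at log2 fold changes of 0.42 to 0.46.

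Nqo1 did not pass against Sham in ICH_MA, at a fold of 1.25 (95% interval 0.977 to 1.61, edgeR adjusted p = 0.271). Its 3 ICH_MA libraries were at 13.3 to 17.3 CPM and overlapped with Sham, whose highest library was at 14.3 CPM. Sod2 was at a fold of 0.961 (0.892 to 1.03, adjusted p = 0.535). Sod1 was at 1.06 (0.940 to 1.19, adjusted p = 0.600) and Cat at 1.04 (0.847 to 1.28, adjusted p = 0.844). The values of Nqo1 and Sod2 passed against Sham in ICH and not in ICH_MA, and the direct comparison of ICH_MA with ICH, given above, passed for neither.

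Ratios of counts within a library do not depend on how libraries are scaled. Hmox1 had 0.153 to 0.206 counts per count of Nfe2l2 in the Sham libraries. The ICH libraries had 1.72 to 2.51, and those of ICH_MA 1.14 to 1.89. The ratio was thus higher in all 6 libraries with hemorrhage than in all Sham libraries, and its ICH and ICH_MA values overlapped. Nqo1 had 0.396 to 0.522 counts per count of Nfe2l2 in the Sham libraries. The ICH libraries, at 0.384 to 0.533, and the ICH_MA libraries, at 0.341 to 0.459, overlapped with them. These 2 ratios were chosen after the values were seen and were not tested, and since gene length enters them they are compared only between libraries.

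**Figure D5:**
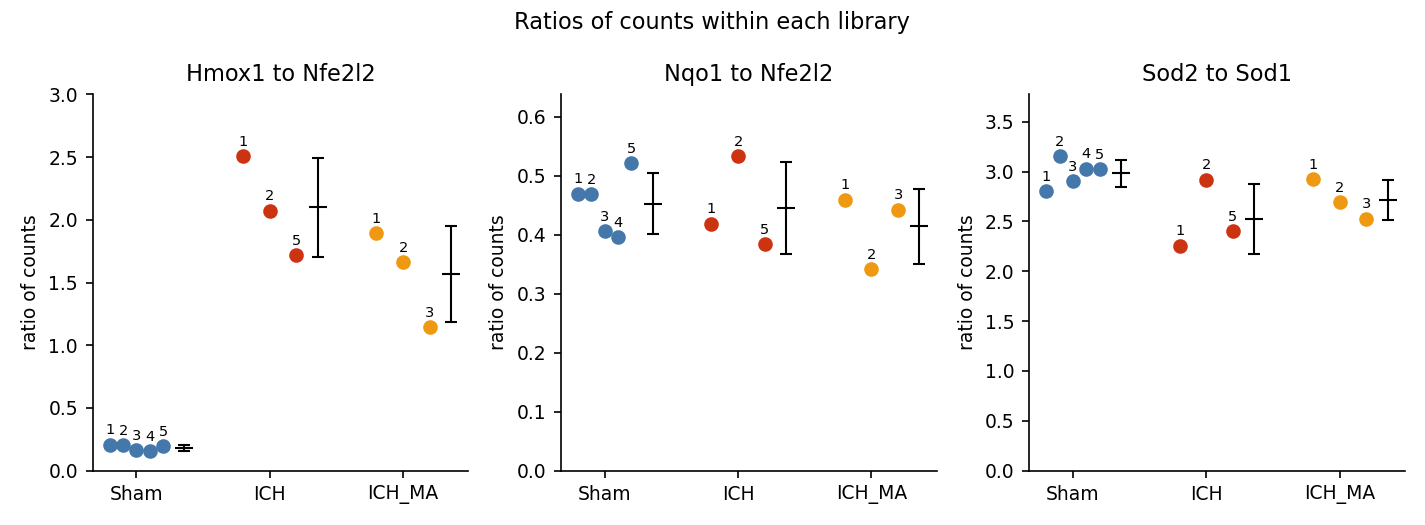
Ratio of counts (y axis, from 0) of Hmox1 to Nfe2l2, of Nqo1 to Nfe2l2 and of Sod2 to Sod1 in every library by group (x axis); numbers are replicate numbers and bars are mean ± SD (n = 5, 3 and 3). The ratio of Hmox1 to Nfe2l2 was 0.153 to 0.206 in Sham and 1.14 to 2.51 in the other libraries, while the other ratios overlapped between groups.

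The ratio of Sod2 to Sod1 set the mitochondrial against the cytosolic enzyme. It was 2.80, 3.15, 2.90, 3.03 and 3.02 in Sham replicates 1 to 5, 2.26, 2.92 and 2.40 in ICH replicates 1, 2 and 5, and 2.92, 2.69 and 2.53 in ICH_MA replicates 1, 2 and 3. ICH replicate 2 lay among the Sham libraries and the other two ICH libraries below them. The log2 ratio differed by -0.25 between ICH and Sham (SE 0.12), by 0.11 between ICH_MA and ICH (SE 0.13) and by -0.14 between ICH_MA and Sham (SE 0.07). An exact two-sided permutation test gave p = 0.107, 0.4 and 0.107, and 0.161, 0.4 and 0.161 after adjustment over the 3 comparisons. The value between ICH_MA and ICH moved by over 1.5 times with single libraries, to 0.03 without ICH replicate 1, 0.22 without ICH replicate 2 and 0.06 without ICH_MA replicate 1. That between ICH_MA and Sham was -0.09 without ICH_MA replicate 3. The smallest p this design allows before adjustment is 0.0357 for 3 against 5 libraries and 0.1 for 3 against 3. After adjustment over the 3 comparisons no p below 0.05 was possible, so the adjusted values cannot decide whether the ratio differed.

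Likeness to Hmox1 was measured as the root mean square difference of log2 CPM over the 11 libraries, after each gene was centred on its Sham mean, among 14389 other genes with a mean of at least 1 CPM. The nearest gene was ENSRNOG00000008816, at 0.22, and the next was ENSRNOG00000010645, at 0.40. ENSRNOG00000008816 was at 6.64 ± 0.804 CPM in Sham (SD, n = 5) and 148 ± 76.8 CPM in ICH (SD, n = 3). Its ICH_MA level was 67.3 ± 22.2 CPM (SD, n = 3). Its ICH replicates 1, 2 and 5 were at 226, 144 and 72.7 CPM, in the order seen for Hmox1. ENSRNOG00000010645 was at 2.62 ± 0.403 CPM in Sham, 52.4 ± 28.7 CPM in ICH and 22.0 ± 5.57 CPM in ICH_MA. Neither ID is paired with a name in the files. Within the set, the nearest pairs by the same measure were Sod1 with Sod2 (0.18) and Nfe2l2 with Nqo1 (0.19), and Hmox1 was at least 2.44 from every other member. The measure takes in the size of a change, so genes that move little lie near each other whatever their direction. Sod2 was called lower in ICH than in Sham and Sod1 was not. Hmox1 shared its order with Nfe2l2 over the ICH libraries but not over the ICH_MA libraries.

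The promoter windows of the genes that moved are shown because the drug binds GC-rich DNA and NRF2 binds a defined element. Windows of 300 bases, 250 before to 50 after the start of the gene, were read from RefSeq (build GRCr8, not the build of the counts) for 5 of the 6 genes; Hmox1 was not matched. They were searched on both strands for the GC box GGGCGG and for the core of the antioxidant response element, TGACNNNGC. Of all 33469 windows, 33.1% held GGGCGG and 12.1% held TGACNNNGC. The sequences below run 5′ to 3′ on the strand of the gene, and capitals mark a match to either motif on either strand.
Nfe2l2, chr3:81028950-81029249, minus strand: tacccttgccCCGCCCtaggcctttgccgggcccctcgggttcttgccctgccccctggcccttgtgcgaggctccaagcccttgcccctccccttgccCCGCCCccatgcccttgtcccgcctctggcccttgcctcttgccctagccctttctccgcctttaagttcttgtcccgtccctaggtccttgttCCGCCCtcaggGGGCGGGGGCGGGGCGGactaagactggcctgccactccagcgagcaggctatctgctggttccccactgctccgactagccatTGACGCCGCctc
Nqo1, chr19:52220218-52220517, minus strand: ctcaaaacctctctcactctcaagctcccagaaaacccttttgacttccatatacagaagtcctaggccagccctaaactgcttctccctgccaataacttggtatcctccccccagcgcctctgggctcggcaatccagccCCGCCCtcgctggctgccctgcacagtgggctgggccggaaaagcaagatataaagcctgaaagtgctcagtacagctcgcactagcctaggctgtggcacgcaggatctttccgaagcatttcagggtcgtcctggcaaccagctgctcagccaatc
Sod2, chr1:50050119-50050418, minus strand: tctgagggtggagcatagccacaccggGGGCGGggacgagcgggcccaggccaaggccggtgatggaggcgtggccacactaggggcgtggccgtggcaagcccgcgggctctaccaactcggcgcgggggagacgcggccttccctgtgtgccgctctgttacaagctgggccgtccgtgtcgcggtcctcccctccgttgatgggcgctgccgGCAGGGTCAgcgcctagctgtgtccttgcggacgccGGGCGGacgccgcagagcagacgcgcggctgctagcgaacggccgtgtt

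The Nfe2l2 window held 6 matches to GGGCGG, of which the last 2 shared a base, and 1 to TGACNNNGC. Its GC content was 68%, above that of 88.9% of all windows, and 8.97% of all windows held 3 or more matches to GGGCGG. The Sod2 window held 2 matches to GGGCGG and 1 to TGACNNNGC, at a GC content of 72%, above that of 94.1% of all windows. In GC content the windows of Nqo1, Sod1 and Cat were above 64.1%, 76.8% and 72.1% of all windows. The Nqo1 window held 1 match to GGGCGG and 0 to TGACNNNGC. The Sod1 window (chr11:42942573-42942872, plus strand) held 1 and 0, and the Cat window (chr3:110329477-110329776, minus strand) 0 and 0. Of the genes with a window, Nfe2l2, Nqo1 and Sod2 were called in ICH against Sham, and Sod1 and Cat were not. The 2 windows with a match to TGACNNNGC were those of Nfe2l2, which rose, and Sod2, which fell, while Nqo1, which rose, had 0. A link between the motif and the response was not tested. A match is a description of letters and not a bound site, and elements outside these windows were not searched.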

How the data were processed

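RNA from rat brain was sequenced. The authors deposited raw counts per gene, whole numbers with no scaling, for 11 of the 15 labelled samples, and columns were matched to samples by library name. Bowtie2, RSEM 1.3.1, DESeq2 1.4.5 and the build mRatBN7.2 are named in the submitters' processing notes; the sources used here do not give their roles, the use of strand or any rounding. Libraries held 56393423 to 67733469 counts. After the filter of edgeR 4.0.16 (R 4.3.3) for low counts (filterByExpr over the groups, with a count of 10 and a total of 15 as minimum), libraries were scaled by TMM, and 1 quasi-likelihood model with a mean for each of the 3 groups was fitted to all of them. Adjustment was by Benjamini-Hochberg over all genes, and an adjusted p below 0.05 was a call. Log2 CPM used a prior count of 2. For edgeR the SE was the absolute log2 fold change divided by the square root of the F statistic of its test. The 95% intervals used this SE and the degrees of freedom of the same fit, without adjustment. Alternatives were DESeq2 1.42.0, limma-voom 3.58.1, RLE scaling, robust moderation, other filters (no filter, or a mean of at least 5 CPM), only the groups compared, the replicate number as a block, and leaving out each library. Permutation tests used scipy 1.17.1. Replicates of a group all differed by more than sampling noise.

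The rule for the 6 genes uses no measured value, but the set was proposed, and the lists and tests were chosen, with earlier results of these data known. The rule for named genes took all 6 members and the 2 genes nearest to Hmox1. The table of RefSeq genes used here carries no Ensembl IDs, so that it named 0 of the 15094 genes. The 4 pathway lists (NRF2 targets, NRF2 regulators, heme and iron handling, removal of peroxide and superoxide) and 7 marker lists (macrophage and microglia, neutrophil, red blood cell, astrocyte, neuron, oligodendrocyte, endothelial cell) were therefore not used here.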

Additional observations from a re-analysis of the deposited data

How the results depend on the processing

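In ICH against Sham 4 of the 6 genes were called, and 2 to 4 with any library left out; the count was 2 without ICH replicate 1, where Nqo1 and Sod2 were lost. The share of all genes called was 24.5% with all libraries, 13.3% without ICH replicate 1, 14.9% without ICH replicate 2 and 29.9% without ICH replicate 5. In ICH_MA against ICH 0 were called, and 0 to 3 with a library left out, the 3 without ICH replicate 5, where 7.59% of all genes were called. In ICH_MA against Sham 2 were called, and 1 to 2 with a library left out, where the share of all genes was 2.32% to 10.5%, against 6.67% with all. Nothing in the labels pairs samples by number, and deviations of same-numbered libraries did not go together (correlations across genes of -0.16 to 0.09). With the replicate number as a block, 2 genes were called in ICH against Sham (Nqo1 at adjusted p = 0.106 and Sod2 at 0.11 were lost, edgeR) and 1 in ICH_MA against Sham (Nfe2l2 at 0.21 was lost); the share of all genes called fell with it, from 24.5% to 12.8% and from 6.67% to 0.782%. Of 6 numbered libraries, 0 correlated best with their own number in the comparison of ICH with Sham and 1 in that of ICH_MA with Sham. The block gave 0 calls in ICH_MA against ICH, and log2 ratios of Sod2 to Sod1 of -0.25, 0.13 and -0.12 in the 3 comparisons. DESeq2, limma-voom, RLE scaling, robust moderation, both other filters and the fits of only the groups compared each called 4, 0 and 2 of the 6 genes in the 3 comparisons, while the share of all genes called ranged over them from 20.9% to 30.5%, from 0% to 3.19% and from 5.04% to 12.2%. In ICH against Sham the SE for Hmox1 was 0.395 by limma-voom, 0.231 by DESeq2 and 0.246 by edgeR. In ICH_MA against Sham it was 0.399, 0.231 and 0.242 by the same tools, so the interval for Hmox1 depends on the tool. Directions turned only for genes that were not called and only with a library left out. Sod1 in ICH against Sham ranged from -0.00531 to 0.146 on the log2 scale and in ICH_MA against ICH from -0.0671 to 0.0847. Cat ranged from -0.181 to 0.107 in ICH_MA against ICH and from -0.0656 to 0.222 in ICH_MA against Sham. The cause of these changes was not tested, beyond fewer libraries in the fit. The lowest count of any of the 6 genes in a library was 264, and depth was not varied.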
